A study of Mus musculus with 93 samples.

Results

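The Cyp2b and Cyp2c genes encode cytochrome P450 enzymes, and 10 of them (Cyp2b9, Cyp2b10, Cyp2b13, Cyp2c29, Cyp2c37, Cyp2c38, Cyp2c39, Cyp2c50, Cyp2c54 and Cyp2c55) were followed in the livers of 7 mouse strains fed a control diet or a Western diet. The members were chosen by gene symbol through their Ensembl identifiers and make up 10 of the 53465 genes in the count table, 3 of them Cyp2b and 7 Cyp2c. All 10 passed the filter on low counts and were among the 19110 genes tested. On the Western diet the mean level of Cyp2c38 was 6.66-fold and that of Cyp2c39 5.60-fold higher in DBA/2J, Cyp2b13 was 11.3-fold higher in A/J, and Cyp2c39 was 3.04-fold lower in PWK/PhJ, all past the test. The abundant members Cyp2c29 and Cyp2c50 passed in no strain in limma, the main test, whereas edgeR and DESeq2 each called them higher in 2 strains.

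Cytochrome P450 enzymes sit in the endoplasmic reticulum, take electrons from P450 oxidoreductase (Por) and add oxygen to drugs, steroids and fatty acids. Members of the Cyp2c family turn arachidonic acid into epoxides and hydroxylated products, and Cyp2b10 is the classic target gene of the constitutive androstane receptor (CAR, encoded by Nr1i3), the nuclear receptor through which phenobarbital acts. CAR and the pregnane X receptor (PXR, encoded by Nr1i2) share many targets, among them Cyp3a11 and several Cyp2c genes. In mouse liver many P450 genes are transcribed mostly in hepatocytes around the central vein, and some differ between the sexes through the pattern of growth hormone secretion. Cyp2b9 and Cyp2b13 are known as genes with higher expression in females, whereas all mice described here were males.

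The series measured liver RNA from 93 male mice by bulk RNA-seq. The 7 strains were the domesticated inbred strains C57BL/6J, DBA/2J, A/J and 129S1/SvImJ and the wild-derived inbred strains WSB/EiJ, CAST/EiJ and PWK/PhJ. Mice moved to 30°C, thermoneutrality (TN), at 6 wk of age and received either the control diet (CD-TN, 10% of calories from fat, 17% from protein and 73% from carbohydrate) or the Western diet (WD-TN, 40%, 17% and 43%) from 7 wk for 17 wk, and perfused livers were taken at 24 wk after a 4-h fast. On CD-TN there were 8 C57BL/6J, 6 DBA/2J, 5 A/J, 7 129S1/SvImJ, 6 WSB/EiJ, 7 CAST/EiJ and 6 PWK/PhJ mice, and on WD-TN 8, 7, 6, 6, 6, 8 and 7 in the same order. Each strain is a single inbred line, and 2 cohorts made up each strain (3 in CAST/EiJ).

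Each library held between 40020424 and 49894856 counted reads, with a median of 46618609. The markers of hepatocytes were present in every group, and in C57BL/6J their summed level was lower on WD-TN (81790 to 104800 CPM, reads scaled to the library size) than on CD-TN (124800 to 144000 CPM). The mean of this sum was lower on WD-TN in every other strain too, with ranges that overlapped between diets in DBA/2J only. In a bulk sample, fewer cells of a type and less RNA per cell cannot be told apart. Of the 93 mice, 6 lay far from their group mates for at least 2 members. They are replicates 2 of C57BL/6J CD-TN, 3 of C57BL/6J WD-TN, 3 of PWK/PhJ CD-TN, 7 of 129S1/SvImJ CD-TN, 6 of WSB/EiJ CD-TN and 5 of WSB/EiJ WD-TN, and values without them are given beside the effects whose call or size they change, although leaving out mice chosen by their member levels is no independent check.

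In the genome build GRCm38 the Cyp2b members lie on chromosome 7 and the Cyp2c members on chromosome 19. Cyp2b10 (ENSMUSG00000030483) spans chr7:25897620-25926624, Cyp2b13 (ENSMUSG00000040583) chr7:26061497-26096197 and Cyp2b9 (ENSMUSG00000040660) chr7:26173411-26210661, all on the plus strand. The first Cyp2c members along chromosome 19 are Cyp2c55 (ENSMUSG00000025002, chr19:39007019-39042693, plus strand), Cyp2c29 (ENSMUSG00000003053, chr19:39269405-39330713, plus), Cyp2c38 (ENSMUSG00000032808, chr19:39389556-39463075, minus) and Cyp2c39 (ENSMUSG00000025003, chr19:39510862-39568529, plus). Further along are Cyp2c37 (ENSMUSG00000042248, chr19:39992424-40012243, plus), Cyp2c54 (ENSMUSG00000067225, chr19:40037940-40073827, minus) and Cyp2c50 (ENSMUSG00000054827, chr19:40089688-40113950, plus). Exons of Cyp2c29 overlap the pseudogene Cyp2c53-ps over 142 bases, and those of Cyp2c55 overlap Gm23800 on the opposite strand over 64 bases.

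The members are close copies of one another, which limits how surely a read is assigned to one of them. Transcript identity was 95.81% between Cyp2c37 and Cyp2c50, 94.98% between Cyp2c50 and Cyp2c54, 93.77% between Cyp2c38 and Cyp2c39 and 91.88% between Cyp2b9 and Cyp2b13, against 73.1% to 76% between Cyp2c55 and the other Cyp2c members. Of all 100-base windows in the transcripts, the share also found in another gene was 9.4% for Cyp2c50, 9.29% for Cyp2b13, 7.59% for Cyp2c54, 4.7% for Cyp2c37 and 1.18% for Cyp2b9, and 0% for the other 5. The read length is not given in the sources used here, and with 50-base windows the shares were 30.7% for Cyp2c50, 30.1% for Cyp2c37, 27.3% for Cyp2b13, 25.7% for Cyp2c54, 12% for Cyp2c39, 11.2% for Cyp2b9, 9.69% for Cyp2b10, 7.45% for Cyp2c38, 2.08% for Cyp2c29 and 1.13% for Cyp2c55. For Cyp2b13 most of the shared 100-base windows (8.5% of its transcript) matched the gene model Gm45225 rather than Cyp2b9. Reads of all strains were aligned to the C57BL/6J genome, so the match to that genome differs between strains, and its part in the strain differences described here was not tested.

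The start regions of the close pairs are alike as well, and those of the 2 pairs with the largest strain differences or diet effects are printed here so that the likeness can be seen. Each line gives the 250 bases before the RefSeq start site in GRCm38.p6, 5′ to 3′ on the strand of the gene, with capitals for aligned bases that differ between Cyp2b9 (chr7:26173159-26173408, plus strand) and Cyp2b13 (chr7:26061245-26061494, plus) or between Cyp2c38 (chr19:39463076-39463325, minus) and Cyp2c39 (chr19:39510572-39510821, plus). In the Cyp2c pair, bases without a counterpart, in gaps or at the ends, are also in lower case and are not matches.
Cyp2b9: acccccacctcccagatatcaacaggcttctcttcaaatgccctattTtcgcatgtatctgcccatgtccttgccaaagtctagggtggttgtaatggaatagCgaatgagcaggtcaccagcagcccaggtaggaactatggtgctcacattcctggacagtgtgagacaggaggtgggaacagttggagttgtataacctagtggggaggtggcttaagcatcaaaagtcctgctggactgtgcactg
Cyp2b13: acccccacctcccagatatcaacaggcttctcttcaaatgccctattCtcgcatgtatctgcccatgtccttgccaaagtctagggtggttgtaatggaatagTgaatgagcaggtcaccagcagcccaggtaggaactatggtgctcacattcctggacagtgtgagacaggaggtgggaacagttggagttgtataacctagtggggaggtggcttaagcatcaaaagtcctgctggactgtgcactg
Cyp2c38: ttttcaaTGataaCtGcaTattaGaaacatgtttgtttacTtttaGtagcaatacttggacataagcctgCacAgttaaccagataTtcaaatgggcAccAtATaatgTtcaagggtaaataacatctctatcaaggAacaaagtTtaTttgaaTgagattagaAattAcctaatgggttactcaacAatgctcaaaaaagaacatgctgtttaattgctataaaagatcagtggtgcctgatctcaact
Cyp2c39: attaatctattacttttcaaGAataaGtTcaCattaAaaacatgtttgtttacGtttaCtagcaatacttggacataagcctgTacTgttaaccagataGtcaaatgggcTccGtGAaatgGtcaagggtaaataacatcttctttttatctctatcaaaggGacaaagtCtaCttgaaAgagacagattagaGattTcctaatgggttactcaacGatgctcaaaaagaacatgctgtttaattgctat

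Cyp2b9 and Cyp2b13 differed at 2 of the 250 bases, and each was 75.8% identical to Cyp2b10 over the 240 bases that could be aligned. Cyp2c38 and Cyp2c39 were 89.6% identical over 221 aligned bases, with 23 mismatches and further gaps. Of the members, 9 of 10 matched an entry in the RefSeq table, the one without being Cyp2c54. The letters TTCNNNGAA, the form bound by STAT5, the transcription factor of growth hormone signalling, were found on either strand in 0 of these 9 windows and in 7.02% of all 32851 promoter windows. AGGTCA, a half-site bound by nuclear receptors, was found in 3 of the 9 (Cyp2b9, Cyp2b13 and Cyp2c29) and in 14% of all windows. Such matches describe the letters only.

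Levels were first compared between members per length, as RPKM, the CPM divided by the exon length in kilobases. Cyp2c29 had the highest mean RPKM of the 10 in 11 of the 14 groups, from 227 in C57BL/6J CD-TN upward. In both CAST/EiJ groups Cyp2c50 came first, at a mean RPKM of 268 on CD-TN and 313 on WD-TN. In A/J on CD-TN the top members were close together, with mean RPKM of 220 for Cyp2c39, 217 for Cyp2b9 and 206 for Cyp2c29. That order rests on the summed exons of Cyp2c29 (3061 bases), and per length of a single transcript (1783 bases) Cyp2c29 came first there too, at 353, and in 12 of the 14 groups in all. Between 5 and 9 members exceeded 1 RPKM in a group.

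Summed over the 10 members, C57BL/6J livers held 1352 ± 409 CPM (SD, n = 8) on CD-TN against 2021 ± 847 CPM (n = 8) on WD-TN. In 129S1/SvImJ the sum was 2295 ± 315 CPM on CD-TN (SD, n = 7) and on WD-TN 3352 ± 426 CPM (n = 6), and in PWK/PhJ it was 1598 CPM on CD-TN and 1577 CPM on WD-TN. The 3 Cyp2b members together made up 421 CPM in A/J on CD-TN and 626 CPM on WD-TN, and at most 34.2 CPM in any group of another strain.

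**Figure D1:**
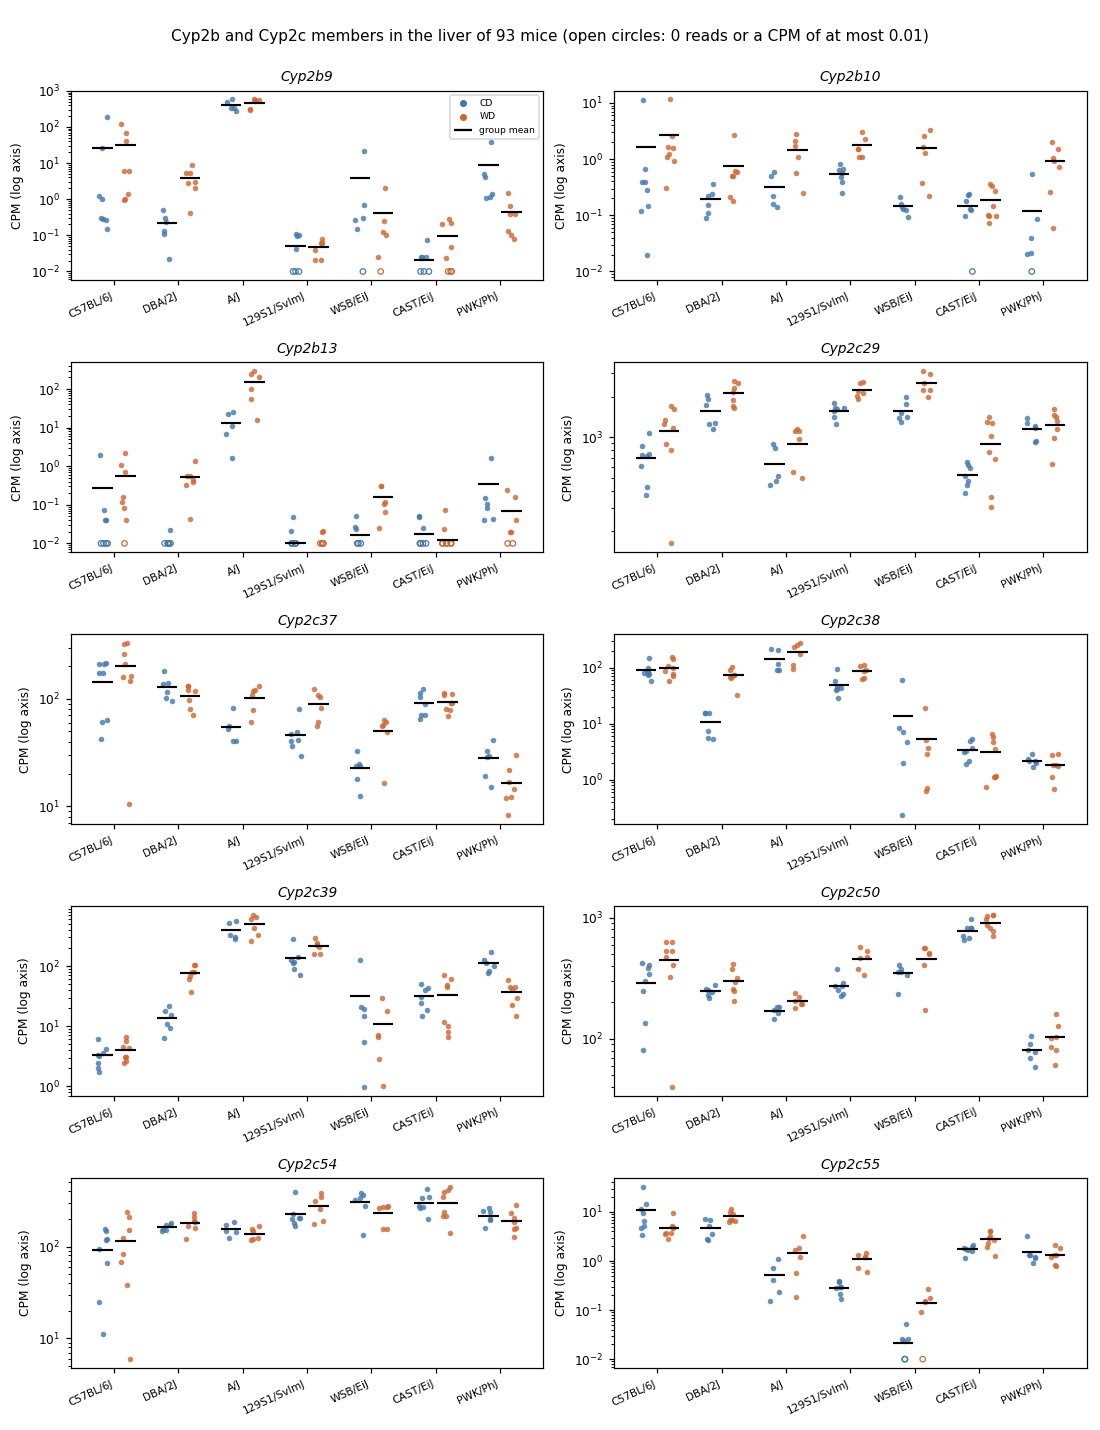
Expression of each member in every mouse (CPM, log axis) by strain and diet, one point per mouse, with open circles for mice with no read or at most 0.01 CPM. A/J ranked first for Cyp2b9, Cyp2b13, Cyp2c38 and Cyp2c39 on both diets, whereas Cyp2c29 differed by 2.99-fold between the highest and lowest strain on CD-TN.

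Strain differences were wide for most members. The F test between strains in limma passed for 9 of 10 members on CD-TN and 10 of 10 on WD-TN, but 93.7% and 93.9% of all genes passed the same tests. The exception was Cyp2b10 on CD-TN (limma adjusted p = 0.084). Between the highest and the lowest strain mean on CD-TN, the fold was 2.99 for Cyp2c29, 3.27 for Cyp2c54, 6.36 for Cyp2c37, 9.68 for Cyp2c50, 65.0 for Cyp2c38 and 120 for Cyp2c39. On WD-TN the corresponding folds were 2.82, 2.63, 12.2, 8.89, 103.8 and 123.

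When the strains were ranked by mean log2 CPM, neighbours in the order differed in 35 of 120 comparisons and did not pass in 85 (exact permutation tests over mice, two-sided, with Benjamini-Hochberg adjustment over the 120). A/J ranked first for Cyp2b9, Cyp2b13, Cyp2c38 and Cyp2c39 on both diets. The mean log2 CPM of Cyp2b9 in A/J lay 6.85 above the next strain on CD-TN (exact permutation adjusted p = 0.022) and 5.80 above it on WD-TN (exact permutation adjusted p = 0.013). For Cyp2b13 the gaps to the next strain were 5.65 on CD-TN (exact permutation adjusted p = 0.022) and 7.90 on WD-TN (exact permutation adjusted p = 0.0070).

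Cyp2c39 on CD-TN ran from A/J through 129S1/SvImJ, PWK/PhJ, CAST/EiJ, DBA/2J and WSB/EiJ down to C57BL/6J, with 3 of the 6 neighbouring pairs differing. Its neighbour Cyp2c38 followed another order, A/J, C57BL/6J, 129S1/SvImJ, DBA/2J, WSB/EiJ, CAST/EiJ and PWK/PhJ. Cyp2c29 was highest in 129S1/SvImJ and lowest in CAST/EiJ on CD-TN, and the only neighbours that differed were PWK/PhJ and C57BL/6J (exact permutation adjusted p = 0.022). CAST/EiJ ranked first for Cyp2c50 on both diets and differed from the next strain on each (exact permutation adjusted p = 0.0070 on CD-TN and 0.0070 on WD-TN), and A/J and PWK/PhJ ranked last. Cyp2c54 was highest in CAST/EiJ and lowest in C57BL/6J, with no neighbours differing on WD-TN. For Cyp2c55 the order on CD-TN was C57BL/6J, DBA/2J, CAST/EiJ, PWK/PhJ, A/J, 129S1/SvImJ and WSB/EiJ. Cyp2b10 was highest in 129S1/SvImJ on both diets, but 0 of 6 neighbouring pairs differed on CD-TN and 1 on WD-TN. The order by mean CPM, used for the folds above, can differ from this order by mean log2 CPM. By mean CPM, C57BL/6J was highest for Cyp2b10 on CD-TN (1.65 CPM against 0.549 in 129S1/SvImJ) and on WD-TN (2.64 against 1.76). On CD-TN the highest mean CPM was in DBA/2J for Cyp2c29 and in WSB/EiJ for Cyp2c54.

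Close paralogs took unequal shares from strain to strain. In C57BL/6J the mean RPKM of Cyp2c38 was 16.9 times that of Cyp2c39 on CD-TN and 15.5 times on WD-TN. In the other 6 strains Cyp2c39 was the higher of the pair, by a ratio of mean RPKM on CD-TN of 1.99 in DBA/2J, 4.42 in A/J, 4.28 in 129S1/SvImJ, 3.62 in WSB/EiJ, 14.4 in CAST/EiJ and 80.4 in PWK/PhJ. In PWK/PhJ the mean RPKM of Cyp2c54 was 4.4 times that of Cyp2c50 on CD-TN, with single mice between 4.08 and 4.92, and 3.06 times on WD-TN, with single mice between 2.89 and 3.39. With the length of a single Cyp2c50 transcript (1812 bases) in place of its summed exons (2918 bases), these ratios were 2.73 and 1.90.

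**Figure D2:**
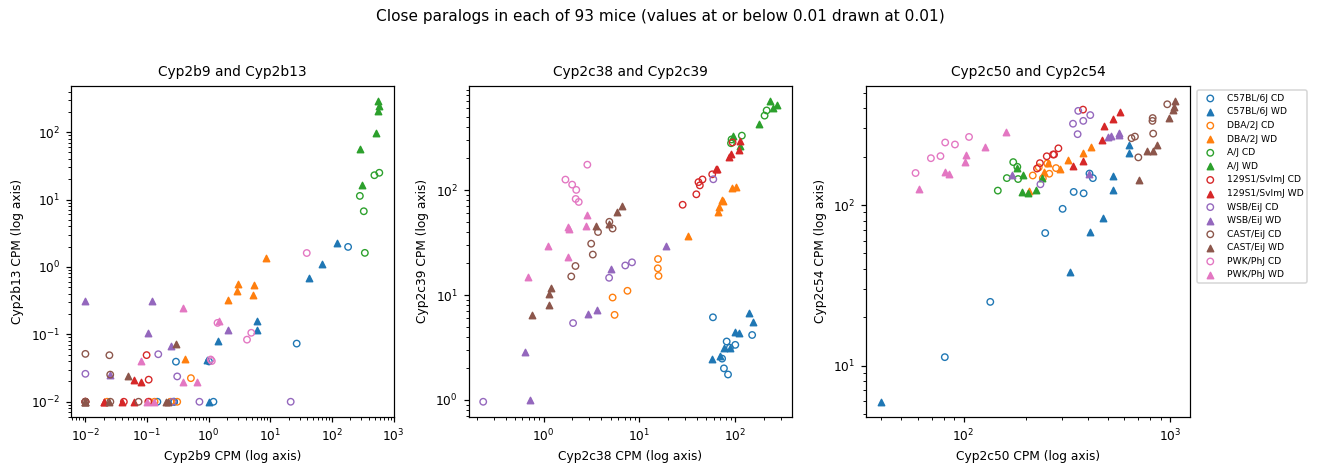
Levels of 3 close paralog pairs in each mouse (CPM of one member against CPM of the other, log axes), coloured by strain, with circles for CD-TN and triangles for WD-TN. For Cyp2c38 and Cyp2c39 the C57BL/6J mice lie on the Cyp2c38 side, where that member was 16.9 times the other per length on CD-TN, apart from the mice of the other 6 strains.

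The effect of diet was tested within each strain as WD-TN against CD-TN. Among the 70 member and strain combinations 13 passed, 11 of them higher and 2 lower on WD-TN. In C57BL/6J, 2 members rose and 1 fell, beside 14.3% of all genes higher and 11.9% lower. In DBA/2J, 3 members rose and none fell (10.2% and 7.77% of all genes), and in A/J 1 rose and none fell (4.39% and 4.64%). In 129S1/SvImJ, 4 members rose and none fell (14.5% and 13.6% of all genes), and in PWK/PhJ 1 rose and 1 fell (15.1% and 14.5%). The 13 effects had the same sign in each cohort in which both diets were present.

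In WSB/EiJ and CAST/EiJ no member passed in either direction in limma, beside 4.97% of all genes higher and 3.97% lower in WSB/EiJ and 9.77% and 9.73% in CAST/EiJ. At an unadjusted p under 0.05, limma gave 3 members higher and 0 lower in WSB/EiJ and 1 higher and 0 lower in CAST/EiJ. With edgeR the adjusted calls were 2 higher and 1 lower in WSB/EiJ and 1 higher in CAST/EiJ, and with DESeq2 they were 3 higher and 2 lower in WSB/EiJ and 1 higher in CAST/EiJ. The zero counts of fallen members in the other strains were the same with these tools: edgeR and DESeq2 called 0 lower in DBA/2J, A/J and 129S1/SvImJ, and limma at the unadjusted p under 0.05 gave 0 lower in each.

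Taken over the 10 members, the median log2 fold change was 0.40 in C57BL/6J, 1.17 in DBA/2J, 0.45 in A/J, 0.74 in 129S1/SvImJ, 0.50 in WSB/EiJ, 0.14 in CAST/EiJ and -0.28 in PWK/PhJ. These medians count all 10 members, including those with almost no reads in a group, such as Cyp2b13 in DBA/2J on CD-TN. Over all 19110 genes the medians were near 0, from -0.0106 (PWK/PhJ) to 0.0169 (CAST/EiJ). Cyp2b10, Cyp2c29 and Cyp2c50 had log2 fold changes above 0 in 7 of 7 strains, between 0.55 and 3.56, between 0.06 and 0.68 and between 0.22 and 0.74 in turn, although Cyp2c29 and Cyp2c50 passed in none in limma.

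**Figure D3:**
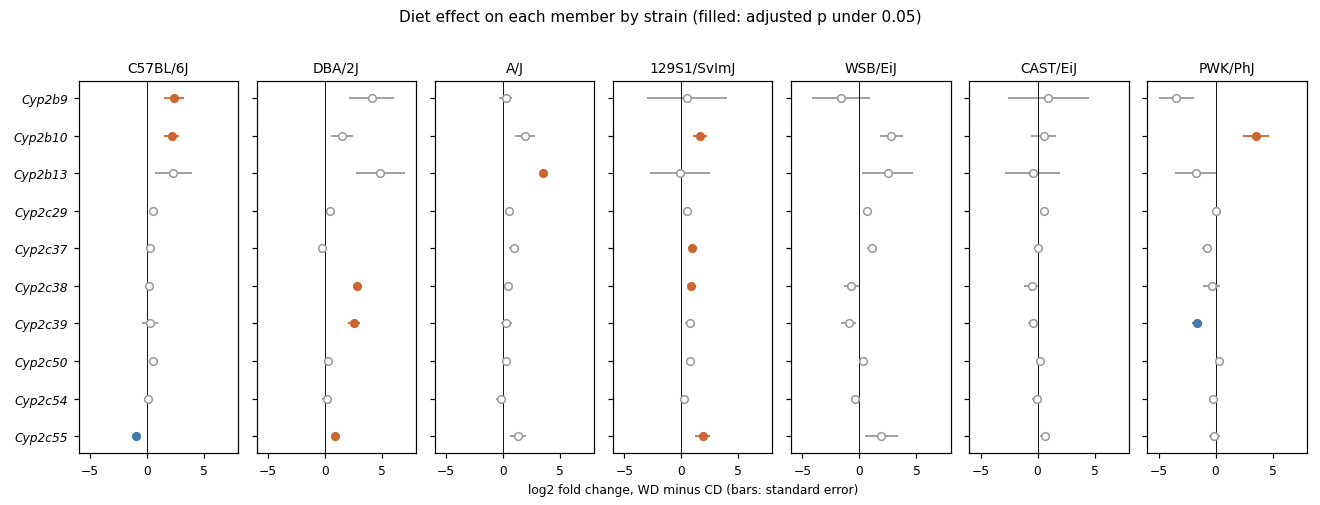
Log2 fold change of WD-TN against CD-TN (± SE, from limma) for each member in each strain, with filled symbols for an adjusted p under 0.05, orange for higher and blue for lower. Filled symbols stand at 13 of the 70 positions, and those of DBA/2J for Cyp2c38 and Cyp2c39 and of A/J for Cyp2b13 lie at 2.83, 2.53 and 3.50.

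Cyp2b13, a P450 gene known for higher expression in females, was measurable mainly in A/J. The 5 A/J mice on CD-TN had 11.32, 6.705, 22.96, 24.96 and 1.618 CPM, and the 6 on WD-TN had between 16.3 and 293 CPM with a median of 153. All but one of the WD-TN mice lay above every CD-TN mouse. The mean was 13.5 ± 10.2 CPM on CD-TN and 152 ± 111 CPM on WD-TN (SD), with a log2 fold change of 3.50 ± 0.39 (SE, n = 5 and 6, limma adjusted p = 1.3e-10), and it was 3.95 and 2.67 in the separate cohorts. Without replicate 5 of CD-TN, the mouse at 1.618 CPM, it was 2.86 (limma adjusted p = 8.9e-09).

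In contrast, Cyp2b9 in A/J was high on both diets. The CD-TN mice had 284.2, 329.2, 489.5, 588.2 and 342.6 CPM, and the WD-TN mice ran from 286 to 585 CPM with a median of 541. The diets overlapped fully, with a log2 fold change of 0.21 (limma adjusted p = 0.88). The ratio of mean RPKM of Cyp2b9 to Cyp2b13 in A/J was therefore 30.1 on CD-TN and 3.1 on WD-TN. In 6 of the 14 groups no mouse had more than 3 Cyp2b13 reads. When the counts of the Cyp2b members were summed, the A/J log2 fold change was 0.53 (limma adjusted p = 0.64), since Cyp2b9 made up most of the sum.

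In C57BL/6J, Cyp2b9 ran from 0.147 to 183 CPM on CD-TN (median 0.653) and from 0.929 to 121 CPM on WD-TN (median 6.04). On CD-TN 6 of 8 mice were under 1.2 CPM, while replicate 2 was the highest mouse of both diets, so the diets overlapped. The mean levels of 26.7 and 31.0 CPM differed by 1.16-fold, while on the log2 scale the change was 2.35 ± 0.86 (SE, n = 8 and 8, limma adjusted p = 0.034). It was 2.26 and 1.03 in the separate cohorts, and 3.44 without replicate 2 (limma adjusted p = 0.0053). It was 0.21 with edgeR's quasi-likelihood test (adjusted p = 0.88) and 0.21 with DESeq2 (adjusted p = 0.91), so that the call held in limma alone among the 3 tools, and it was lost in limma with cohort as a covariate (1.84, adjusted p = 0.062).

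In DBA/2J, Cyp2b9 ran from 0.0224 to 0.515 CPM on CD-TN (median 0.187) and from 0.411 to 8.60 CPM on WD-TN (median 2.99). Of the 7 WD-TN mice 6 were above every CD-TN mouse, but the difference missed the limma threshold, with a log2 fold change of 4.09 ± 1.97 (SE, adjusted p = 0.15). edgeR gave an adjusted p of 0.026 and DESeq2 0.0016. Cyp2b13 in the same strain had 0 to 1 reads in the CD-TN mice and 2 to 57 reads in the WD-TN mice, so the groups did not overlap (limma adjusted p = 0.11, edgeR 0.005). The other direction was seen in PWK/PhJ, where Cyp2b9 had a median of 2.79 CPM on CD-TN and 0.380 CPM on WD-TN and 6 of 7 WD-TN mice lay below every CD-TN mouse, with a log2 fold change of -3.46 ± 1.55 (SE, limma adjusted p = 0.083). The difference passed in edgeR (-4.19, adjusted p = 0.0026) and DESeq2 (-4.23, adjusted p = 0.0006). In limma it was -2.74 (adjusted p = 0.20) without replicate 3 of CD-TN, the highest mouse at 39.1 CPM. 129S1/SvImJ mice had at most 5 Cyp2b9 reads on CD-TN and 4 on WD-TN.

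Cyp2b10, the CAR target, was low in every strain, at 11.7 CPM or less in all 93 mice. In 129S1/SvImJ it ran from 0.246 to 0.824 CPM on CD-TN (median 0.574) and from 1.08 to 3.07 CPM on WD-TN (median 1.52). The groups did not overlap, with a log2 fold change of 1.63 ± 0.64 (SE, n = 7 and 6, limma adjusted p = 0.046), and 2.04 and 1.21 in the separate cohorts. The call was lost with edgeR (adjusted p = 0.067) and without replicate 7 of CD-TN (limma adjusted p = 0.059).

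In C57BL/6J, Cyp2b10 had a median of 0.332 CPM on CD-TN (0.0197 to 11.2) and 1.41 CPM on WD-TN (0.310 to 11.7), with one outlying mouse on each diet. Its log2 fold change was 2.15 ± 0.63 (SE, n = 8 and 8, limma adjusted p = 0.0062). It was 2.94 without replicate 2 of CD-TN (limma adjusted p = 0.00047) and 1.7 without replicate 3 of WD-TN (limma adjusted p = 0.028). With edgeR it was 0.66 (adjusted p = 0.46) and with DESeq2 0.68 (adjusted p = 0.49). In PWK/PhJ, Cyp2b10 had a median of 0.0307 CPM on CD-TN (0 to 0.543) and 0.939 CPM on WD-TN (0.0599 to 2.00). These levels rest on few reads, with 2, 1, 27, 1, 0 and 4 in the CD-TN mice and 3 to 105 in the WD-TN mice. There 5 of 7 WD-TN mice lay above every CD-TN mouse, and the log2 fold change was 3.56 ± 1.16 (SE, n = 6 and 7, limma adjusted p = 0.014), or 4.24 without replicate 3 of CD-TN (limma adjusted p = 0.013).

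WSB/EiJ mice had 0.0945 to 0.214 CPM of Cyp2b10 on CD-TN (median 0.136) and 0.224 to 3.28 CPM on WD-TN (median 1.45). The groups did not overlap, yet the log2 fold change of 2.81 ± 0.97 (SE, n = 6 and 6) fell just outside the threshold (limma adjusted p = 0.052), and edgeR gave 3.42 (adjusted p = 0.005). It passed in limma without replicate 2 of C57BL/6J CD-TN (adjusted p = 0.029) or without replicate 3 of C57BL/6J WD-TN (adjusted p = 0.03). In A/J, DBA/2J and CAST/EiJ the log2 fold changes of 1.91, 1.48 and 0.55 did not pass (limma adjusted p = 0.17, 0.31 and 0.80).

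Cyp2c38 and Cyp2c39, a neighbouring pair of arachidonic acid and retinoid metabolising enzymes, rose together in DBA/2J. Cyp2c38 ran from 5.25 to 15.8 CPM on CD-TN (median 11.5) and from 32.3 to 102 CPM on WD-TN (median 73.3). Cyp2c39 ran from 6.47 to 22.0 CPM on CD-TN (median 13.1) and from 36.9 to 106 CPM on WD-TN (median 78.9). For both genes all 7 WD-TN mice lay above all 6 CD-TN mice. For Cyp2c38 the log2 fold change was 2.83 ± 0.39 (SE, n = 6 and 7, limma adjusted p = 3.8e-08), with 2.77 and 2.82 in the separate cohorts. For Cyp2c39 it was 2.53 ± 0.49 (limma adjusted p = 6.0e-05), with 2.57 and 2.45 in the cohorts.

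In PWK/PhJ the member of the pair that was expressed moved the other way. Cyp2c39 ran from 77.0 to 174 CPM on CD-TN (median 107) and from 14.9 to 58.1 CPM on WD-TN (median 42.3), with every WD-TN mouse below every CD-TN mouse. It fell by 1.67 ± 0.44 on the log2 scale (SE, n = 6 and 7, limma adjusted p = 0.0020), and by 1.63 and 1.66 in the separate cohorts. Cyp2c38 in PWK/PhJ was at 1.69 to 2.86 CPM on CD-TN and 0.686 to 2.84 CPM on WD-TN.

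In 129S1/SvImJ, Cyp2c38 ran from 28.3 to 93.9 CPM on CD-TN (median 42.7) and from 63.1 to 113 CPM on WD-TN (median 88.5). The highest CD-TN mouse was replicate 7, and 2 of 6 WD-TN mice exceeded it. The log2 fold change of 0.88 ± 0.33 (SE, n = 7 and 6) passed in limma (adjusted p = 0.039, and 0.017 with a log2 fold change of 1.04 without replicate 7) but not in edgeR (adjusted p = 0.18) or DESeq2 (adjusted p = 0.24). Cyp2c39 in the same mice had a log2 fold change of 0.75 (limma adjusted p = 0.22). In A/J, where Cyp2c39 was highest, the CD-TN mice had 303.5, 279.5, 512.1, 573.8 and 330.1 CPM and the WD-TN mice 262 to 711 CPM with a median of 515, with overlap between the diets.

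C57BL/6J mice had little Cyp2c39 on either diet, between 1.75 and 6.13 CPM on CD-TN and between 2.44 and 6.69 CPM on WD-TN. Cyp2c38 in this strain ran from 58.6 to 150 CPM on CD-TN and from 57.1 to 155 CPM on WD-TN. Neither gene passed the test there. In WSB/EiJ the pair spread widely among mice of the same diet, with Cyp2c39 from 0.961 to 127 CPM on CD-TN and from 0.998 to 29.5 CPM on WD-TN, and its log2 fold change was -0.96 (limma adjusted p = 0.42). The value was -0.28 without replicate 6 of CD-TN and -1.41 without replicate 5 of WD-TN, neither past the limma threshold (adjusted p = 0.87 and 0.26), whereas with all mice edgeR (-1.53, adjusted p = 0.045) and DESeq2 (-1.53, adjusted p = 0.028) called a fall. In CAST/EiJ, Cyp2c39 ran from 15.0 to 49.8 CPM on CD-TN and from 6.50 to 71.0 CPM on WD-TN, with a log2 fold change of -0.40.

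Cyp2c55, which makes hydroxylated products of arachidonic acid and is also expressed in the gut, moved in opposite directions among the strains. In C57BL/6J it ran from 3.42 to 32.4 CPM on CD-TN (median 8.07) and from 2.77 to 9.37 CPM on WD-TN (median 4.16), with overlap. It fell by 0.96 ± 0.26 on the log2 scale (SE, n = 8 and 8, limma adjusted p = 0.0027), and by 0.97 and 1.02 in the separate cohorts. The highest mouse of each diet was one of those that stood apart. It was -0.66 without replicate 2 of CD-TN (limma adjusted p = 0.022) and -1.13 without replicate 3 of WD-TN (limma adjusted p = 0.00075). Across the other settings tried, the log2 fold change lay between -1.22 and -0.66, and the call was lost in a fit of this strain alone (limma adjusted p = 0.14).

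In DBA/2J, Cyp2c55 ran from 2.63 to 7.20 CPM on CD-TN (median 4.35) and from 6.11 to 11.7 CPM on WD-TN (median 6.99), and 3 of 7 WD-TN mice were above every CD-TN mouse. It rose by a log2 fold change of 0.86 ± 0.31 (SE, n = 6 and 7, limma adjusted p = 0.037), with 1.33 and 0.40 in the separate cohorts, and did not pass in edgeR (adjusted p = 0.12). In 129S1/SvImJ the level was lower and the diets did not overlap, with 0.169 to 0.394 CPM on CD-TN (median 0.289) and 0.589 to 1.47 CPM on WD-TN (median 1.23). The log2 fold change there was 1.86 ± 0.69 (SE, n = 7 and 6, limma adjusted p = 0.034), and the call was lost without replicate 7 of CD-TN (limma adjusted p = 0.062). WSB/EiJ mice had 0 to 2 reads of Cyp2c55 on CD-TN and 0 to 10 on WD-TN, so no fold is given.

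Cyp2c29, an arachidonic acid epoxygenase and one of the most abundant P450 transcripts of mouse liver, had a mean level on WD-TN that was 1.07-fold (PWK/PhJ) to 1.69-fold (CAST/EiJ) that on CD-TN, and it passed in no strain in limma. In 129S1/SvImJ it ran from 1254 to 1797 CPM on CD-TN (median 1616) and from 1912 to 2572 CPM on WD-TN (median 2156). The diets did not overlap, but the log2 fold change of 0.51 missed the threshold (limma adjusted p = 0.20). In WSB/EiJ the medians were 1468 CPM on CD-TN (1298 to 1984) and 2385 CPM on WD-TN (1981 to 3095), and 5 of 6 WD-TN mice were above every CD-TN mouse, with a log2 fold change of 0.68 (limma adjusted p = 0.17). In DBA/2J the medians were 1499 and 2164 CPM, with a log2 fold change of 0.46 (limma adjusted p = 0.31).

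C57BL/6J mice had 370 to 1082 CPM of Cyp2c29 on CD-TN (median 729) and 162 to 1708 CPM on WD-TN (median 1211). The lowest WD-TN mouse was replicate 3, below every CD-TN mouse. It had a log2 fold change of 0.52 (limma adjusted p = 0.12) with this mouse and 0.89 without it (limma adjusted p = 0.00099). With all mice, edgeR (0.69, adjusted p = 0.022) and DESeq2 (0.70, adjusted p = 0.014) called it. CAST/EiJ mice ran from 382 to 653 CPM on CD-TN (median 512) and from 304 to 1405 CPM on WD-TN (median 896), with a log2 fold change of 0.60 (limma adjusted p = 0.090) that passed in edgeR (0.76, adjusted p = 0.017) and DESeq2 (0.75, adjusted p = 0.012). It also passed in limma without replicate 3 of C57BL/6J WD-TN (0.58, adjusted p = 0.037). In PWK/PhJ the medians were 1189 and 1315 CPM and the log2 fold change was 0.06 (limma adjusted p = 0.91).

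Cyp2c37, Cyp2c50 and Cyp2c54 are the members with the most shared sequence, and all 3 encode arachidonic acid metabolising P450s. Cyp2c37 in 129S1/SvImJ ran from 29.2 to 81.1 CPM on CD-TN (median 41.6) and from 56.3 to 122 CPM on WD-TN (median 92.7), with 4 of 6 WD-TN mice above every CD-TN mouse. It rose by a log2 fold change of 0.95 ± 0.37 (SE, n = 7 and 6, limma adjusted p = 0.046), with 1.29 and 0.59 in the separate cohorts. In WSB/EiJ the medians were 23.8 CPM on CD-TN and 56.3 CPM on WD-TN, and in PWK/PhJ 29.1 and 14.6 CPM. The log2 fold changes of 1.09 in WSB/EiJ and -0.80 in PWK/PhJ did not pass (limma adjusted p = 0.075 and 0.12), although edgeR (adjusted p = 0.019) and DESeq2 (adjusted p = 0.0083) called the one in WSB/EiJ. In C57BL/6J it was 0.30 (limma adjusted p = 0.57), and 0.84 without replicate 3 of WD-TN (limma adjusted p = 0.013). Without that C57BL/6J mouse Cyp2c37 also passed in limma as higher in A/J (0.93, adjusted p = 0.04) and WSB/EiJ (1.08, adjusted p = 0.013). It then passed as lower in PWK/PhJ (-0.80, limma adjusted p = 0.039).

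Cyp2c50 was highest in CAST/EiJ, at 650 to 969 CPM on CD-TN (median 821) and 710 to 1055 CPM on WD-TN (median 925), and lowest in PWK/PhJ, at 58.6 to 106 CPM on CD-TN (median 79.4) and 60.6 to 160 CPM on WD-TN (median 101). These ranges leave no overlap between the 2 strains. The largest log2 fold change of diet was 0.74 in 129S1/SvImJ (limma adjusted p = 0.056), where the medians were 271 and 472 CPM. This effect passed in edgeR (0.74, adjusted p = 0.022) and DESeq2 (0.75, adjusted p = 0.015), and in limma without replicate 7 of CD-TN (0.82, adjusted p = 0.042). It also passed in limma without replicate 2 of C57BL/6J CD-TN (adjusted p = 0.04) or without replicate 3 of C57BL/6J WD-TN (adjusted p = 0.0073). In C57BL/6J it was 0.49 (limma adjusted p = 0.18) and, without replicate 3 of WD-TN, 0.95 (limma adjusted p = 0.0002), and edgeR (0.62, adjusted p = 0.039) and DESeq2 (0.63, adjusted p = 0.026) called it with all mice.

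Cyp2c54 had log2 fold changes between -0.35 and 0.28 and no adjusted p in limma below 0.676. In C57BL/6J the value of 0.13 became 0.66 without replicate 3 of WD-TN (limma adjusted p = 0.093) and -0.24 without replicate 2 of CD-TN (limma adjusted p = 0.64). In 129S1/SvImJ, for example, it ran from 169 to 393 CPM on CD-TN (median 206) and from 175 to 378 CPM on WD-TN (median 282). In C57BL/6J it spread from 5.96 to 235 CPM among the WD-TN mice alone. Paralogs were also summed, as the Cyp2b members, as Cyp2c29 with Cyp2c38 and Cyp2c39, and as Cyp2c37 with Cyp2c50 and Cyp2c54. Cyp2c55, which has no close paralog among the members, stood alone. Of 28 combinations of sum and strain 4 passed. They were the summed Cyp2b members in C57BL/6J (log2 fold change 2.53, limma adjusted p = 0.0081) and Cyp2c55 in C57BL/6J, DBA/2J and 129S1/SvImJ. Cyp2c29 outweighed the pair in its sum, with means of 1565 CPM beside 10.9 of Cyp2c38 and 13.7 of Cyp2c39 in DBA/2J on CD-TN. Cyp2c38 and Cyp2c39 were not summed without Cyp2c29, so these sums do not show how shared reads bear on the pair.

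The same model also tested whether strains differed in their response to diet. The F test passed for 5 of 10 members, beside 37.5% of all genes: Cyp2c38 (limma adjusted p = 3.3e-06), Cyp2c55 (0.0024), Cyp2c39 (0.0035), Cyp2b9 (0.015) and Cyp2c37 (0.02). Against the mean effect of the other 6 strains, DBA/2J departed for 2 members (7.77% of all genes), Cyp2c38 by a log2 difference of 2.85 ± 0.45 (SE, limma adjusted p = 7.4e-06) and Cyp2c39 by 2.82 ± 0.54 (limma adjusted p = 0.0003). PWK/PhJ departed for 2 (16.3% of all genes), Cyp2c39 by -2.09 (limma adjusted p = 0.0016) and Cyp2c37 by -1.31 (limma adjusted p = 0.025). C57BL/6J departed for 1 (4.69% of all genes), Cyp2c55 by -2.04 (limma adjusted p = 0.00074).

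No member departed in limma in A/J (0.466% of all genes), 129S1/SvImJ (6.28%), WSB/EiJ (0.947%) or CAST/EiJ (14.5%). At an unadjusted p under 0.05 limma gave 1 member in A/J, 0 in 129S1/SvImJ, 1 in WSB/EiJ and 0 in CAST/EiJ, and edgeR called 0 in each of these 4 strains. The rise of Cyp2b13 in A/J was therefore not shown to differ from its response in the other strains, 6 of whose groups held no mouse with more than 3 reads of this gene.

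The mice that stood apart shared some members. Replicate 2 of C57BL/6J CD-TN and replicate 3 of PWK/PhJ CD-TN were both far above their mates for Cyp2b9, Cyp2b10, Cyp2b13 and Cyp2c55, and the 2 WSB/EiJ mice for Cyp2b9 and Cyp2c38. Replicate 2 of C57BL/6J CD-TN had 183 CPM of Cyp2b9 against 0.147 to 26.8 in its 7 mates, 11.2 CPM of Cyp2b10 against 0.0197 to 0.675, and 32.4 CPM of Cyp2c55 against 3.42 to 14.6. Its Cyp2c29, Cyp2c37, Cyp2c38, Cyp2c50 and Cyp2c54 were each below those of all mates. Of 16 female-predominant genes 13 were above, and of 14 male-predominant genes 12 were below, all its mates, and its Nr1i3 was at 6.85 CPM against 13.2 to 25.8. Its summed stellate cell and fibroblast markers were at 1070 CPM against 351 to 528 and its cholangiocyte markers at 437 CPM against 43.4 to 199. The part of these differences in its P450 levels was not tested.

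Replicate 3 of C57BL/6J WD-TN had all 12 pericentral genes below its mates, and so were its Cyp2c29 (162 CPM against 797 to 1710), Cyp2c37 (10.6 against 146 to 330), Cyp2c50 (39.9 against 326 to 630) and Cyp2c54 (5.96 against 38.4 to 235). Its Cyp2b10 was at 11.7 CPM against 0.31 to 2.63 and its Nr1i3 at 3.51 CPM against 16.4 to 29.1. On each diet, the C57BL/6J mouse with the most Cyp2b10 was the one with the least Nr1i3 mRNA. Its stellate cell and fibroblast markers were at 1310 CPM against 356 to 857, and their part was not tested.

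Replicate 7 of 129S1/SvImJ CD-TN had 5 Cyp2c members above all mates, among them Cyp2c39 (284 CPM against 72.4 to 141) and Cyp2c54 (393 against 169 to 226), and a Cyp2c29 level of 1570 CPM within their range. Of 20 other CAR and PXR targets 11 were above all its mates, as were Nr1i3 (70.3 CPM against 24.8 to 52.7) and Por (595 against 243 to 363). It also had 11 of 14 male-predominant genes below and 6 of 16 female-predominant genes above its mates. Replicate 3 of PWK/PhJ CD-TN had 39.1 CPM of Cyp2b9 against 1.08 to 4.92, with 11 of 16 female-predominant genes above and 11 of 14 male-predominant genes below its mates. Replicate 6 of WSB/EiJ CD-TN had 59.0 CPM of Cyp2c38 and 127 CPM of Cyp2c39, and its RNA integrity number was 7.2 against 8.9 to 9.7. In that mouse 9 female-predominant genes were above and 7 male-predominant genes below its mates. These counts were 2 and 1 in replicate 5 of WSB/EiJ WD-TN, and 6 and 7 in replicate 3 of C57BL/6J WD-TN. Mice that did not stand apart could show the same, such as replicate 3 of A/J CD-TN (8 and 10) and replicate 2 of PWK/PhJ WD-TN (6 and 12).

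**Figure D4:**
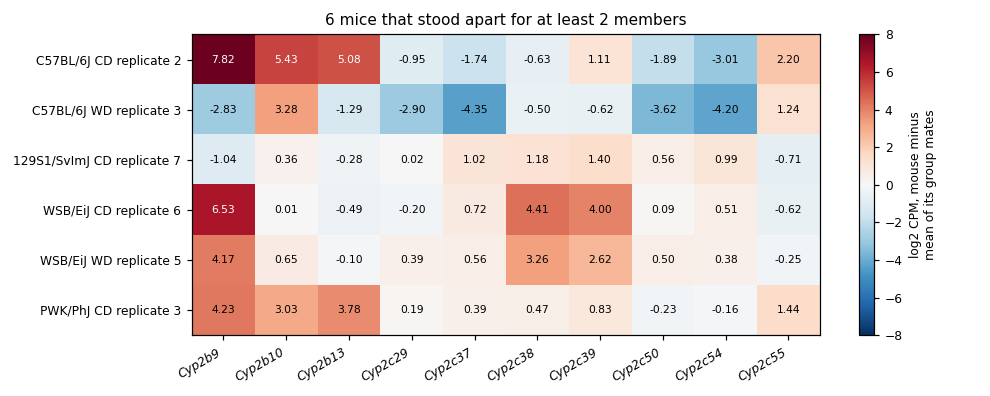
Difference in log2 CPM between each of the 6 mice that stood apart (rows) and the mean of its group mates for the 10 members (columns), with red for above and blue for below. Replicate 2 of C57BL/6J CD-TN stands out in Cyp2b9, Cyp2b10 and Cyp2b13, whereas replicate 7 of 129S1/SvImJ CD-TN stands out in Cyp2c37, Cyp2c38, Cyp2c39, Cyp2c50 and Cyp2c54.

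Other genes around the members were counted list by list. Of 20 other targets of CAR and PXR, 5 rose in C57BL/6J, 8 in DBA/2J, 6 in A/J, 11 in 129S1/SvImJ, 6 in WSB/EiJ, 4 in CAST/EiJ and 3 in PWK/PhJ, and at most 2 fell in a strain. The list medians of the log2 fold change lay between 0.09 in PWK/PhJ and 0.77 in 129S1/SvImJ, above the all-gene medians given before. Cyp3a11, a steroid and drug hydroxylase, rose by a log2 fold change of 1.73 in DBA/2J, 1.11 in A/J, 2.60 in 129S1/SvImJ, 2.46 in WSB/EiJ and 3.32 in CAST/EiJ (limma adjusted p between 1.7e-20 and 0.0079). Ces2c, a carboxylesterase, rose by 1.56 in DBA/2J, 2.48 in 129S1/SvImJ, 2.54 in WSB/EiJ and 1.86 in PWK/PhJ, and passed as higher in C57BL/6J too. Abcb1a, which encodes a drug efflux pump, rose by 1.68 in DBA/2J and 1.88 in A/J. In CAST/EiJ, where no member passed in limma, Cyp3a11 had the largest of these changes, and Gadd45b, a stress-inducible gene, fell by 2.17.

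The regulators were counted in the same way. Among 12 genes of CAR and PXR regulation 2 rose in C57BL/6J, 2 in 129S1/SvImJ and 1 in PWK/PhJ, and between 0 and 4 fell in a strain, with list medians between -0.17 and 0.08. Nr1i3 did not pass, with log2 fold changes between -0.44 in PWK/PhJ (limma adjusted p = 0.29) and 0.41 in A/J (limma adjusted p = 0.39) and the others closer to 0. Nr1i2 fell in CAST/EiJ only, by 0.59 (limma adjusted p = 0.0019). Of 8 electron transfer genes, 1 to 3 rose in a strain, and Por rose in DBA/2J only, by 0.77 (limma adjusted p = 0.0092), with 0.71 in A/J (limma adjusted p = 0.064). Pgrmc1, a haem-binding partner of P450 enzymes, rose in 5 strains by 0.20 to 0.48.

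Family members outside the 10 were counted too. Of the 11 other Cyp2b and Cyp2c symbols listed, 10 were in the count table, and 6 were expressed highly enough to be tested. The symbol without a match, Cyp2c44, is not a gene name in the annotation used here, so it does not stand for a missing gene. Of those 6, 4 fell in PWK/PhJ and at most 2 in any other strain, and at most 1 rose in a strain. Cyp2c68 fell by 0.79 in C57BL/6J, 0.66 in DBA/2J, 0.59 in 129S1/SvImJ, 1.39 in WSB/EiJ and 1.14 in PWK/PhJ on the log2 scale. Cyp2c69 and Cyp2c40, both higher in females, fell by 4.51 and 1.47 in PWK/PhJ and by 1.90 and 1.61 in CAST/EiJ.

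Of 16 female-predominant genes, among which Cyp2b9 and Cyp2b13 were not counted, 11 fell in PWK/PhJ and 5 in CAST/EiJ, with list medians of -2.14 and -0.70, against 0 to 2 in the other strains. The sulfotransferase Sult3a1 fell by 8.65 and the steroid hydroxylase Cyp3a41a by 8.20 in PWK/PhJ. In the same strain Cyp2b9 had a log2 fold change of -3.46 that did not pass in limma but did in edgeR and DESeq2, and Cyp2c39 fell. Without replicate 3 of PWK/PhJ CD-TN, 11 of the 16 fell, with a list median of -1.97. Of 14 male-predominant genes, 4 passed as higher in C57BL/6J with a list median of 0.20, and at most 1 elsewhere. Without replicate 2 of C57BL/6J CD-TN, which had 12 of them below all its mates, 1 passed as higher and 3 as lower, with a median of -0.19. Among 10 genes of growth hormone signalling, 4 rose in 129S1/SvImJ, including Cish (2.59), a STAT5-induced inhibitor of the receptor.

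Of 12 pericentral genes 4 rose in C57BL/6J, 3 in DBA/2J, 5 in 129S1/SvImJ, 4 in WSB/EiJ and 4 in CAST/EiJ, and 3 fell in C57BL/6J, 1 in A/J and 3 in PWK/PhJ. Without replicate 3 of C57BL/6J WD-TN, which had all 12 below its mates, 5 rose and 1 fell in that strain. The list median was highest in 129S1/SvImJ (0.34) and lowest in PWK/PhJ (-0.21). Rhbg, an ammonium transporter of pericentral hepatocytes, rose by 1.48 in C57BL/6J and 1.31 in WSB/EiJ, at low mean levels (0.292 to 0.784 CPM in C57BL/6J). Other genes of the list fell, with Axin2 by 0.67 in C57BL/6J, 0.73 in A/J and 0.58 in PWK/PhJ. Tbx3 fell by 0.84 in C57BL/6J, and Cyp1a2 and Oat by 0.64 and 0.58 in PWK/PhJ. Of 13 genes of eicosanoid metabolism 1 to 4 rose and 0 to 2 fell in a strain. Ephx1, a microsomal epoxide hydrolase that is also a CAR target, rose in 6 strains by 0.57 to 1.32. Cyp2j9, another P450 acting on arachidonic acid, fell in 5 strains, by 1.19 in C57BL/6J and 1.07 in 129S1/SvImJ.

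**Figure D5:**
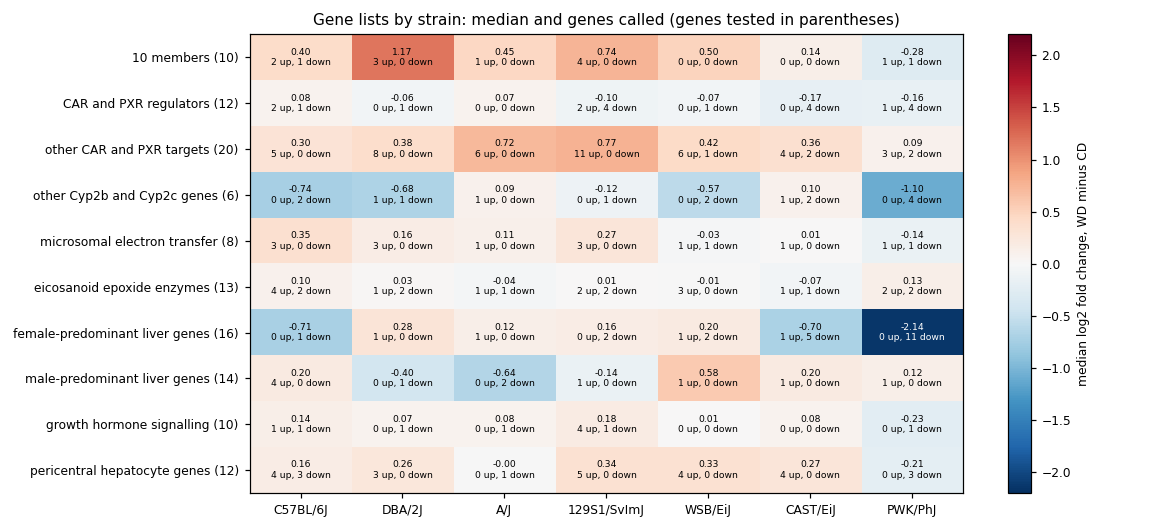
Median log2 fold change of WD-TN against CD-TN for 10 gene lists (rows) in the 7 strains (columns), with the numbers of genes higher and lower at an adjusted p under 0.05 written in each cell. Other CAR and PXR targets have medians above 0 in every strain, up to 0.77 in 129S1/SvImJ, and female-predominant genes have their lowest median, -2.14, in PWK/PhJ.

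Markers of other cell types moved with diet in the same strains. Of 9 hepatocyte markers 7 fell in C57BL/6J, 4 in DBA/2J, 6 in A/J, 7 in 129S1/SvImJ, 5 in WSB/EiJ, 1 in CAST/EiJ and 8 in PWK/PhJ (limma). Of 10 leukocyte markers 6 rose in C57BL/6J, 8 in 129S1/SvImJ and 7 in PWK/PhJ. In DBA/2J, where Cyp2c38 and Cyp2c39 rose, the summed leukocyte markers were at 225 to 330 CPM on CD-TN and 195 to 331 CPM on WD-TN, and stellate cell markers at 413 to 519 and 354 to 477 CPM. In PWK/PhJ, where Cyp2c39 fell, the summed leukocyte markers were at 38.3 to 228 CPM on CD-TN and 213 to 294 CPM on WD-TN, and stellate markers at 152 to 231 and 326 to 732 CPM. Their part in the member effects was not tested.

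Across mice, some members varied together closely. With each group's mean removed, Pearson's r of log2 CPM over the 93 mice was 0.94 between Cyp2c38 and Cyp2c39, 0.92 between Cyp2c50 and Cyp2c54, 0.92 between Cyp2c37 and Cyp2c50 and 0.63 between Cyp2b9 and Cyp2b13. Cyp2c29 had an r of 0.71 with Cyp2c50 but of 0.20 with Cyp2c38 and 0.22 with Cyp2c39, its nearer neighbours. Both members of a pair were read from the same libraries, and the part of shared reads in these values was not tested. Over the 14 group means the order was another, with r of 0.32 for Cyp2c38 and Cyp2c39, 0.30 for Cyp2c50 and Cyp2c54 and 0.92 for Cyp2b9 and Cyp2b13. Cyp2b10 and Cyp2c54 had an r of -0.51 within groups. In log2 CPM, replicate 2 of C57BL/6J CD-TN differed from its mates' mean by 5.43 for Cyp2b10 and -3.01 for Cyp2c54. Replicate 3 of C57BL/6J WD-TN differed by 3.28 and -4.20. All these r include the 6 mice that stood apart, and their weight was not tested.

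Genes outside the family were ranked by the same measure over 11143 candidate genes. Within groups, the closest to Cyp2c38 and Cyp2c39 was Prlr, the prolactin receptor, with r of 0.76 and 0.77, followed by Rtn4 with 0.71 and 0.75 (n = 93 mice). Cyp2c50 and Cyp2c54 were closest to Hsd11b1, which reactivates glucocorticoids, with r of 0.84 and 0.86, and to Cyp2e1, the ethanol-oxidising P450 of pericentral hepatocytes, with 0.83 and 0.84. Cyp2c29 was also closest to Hsd11b1, with 0.79, and Cyp2c37 to Cyp2e1, with 0.80. Cyp2b9 was closest to Mgst3 (0.62) and Cd36, a fatty acid transporter (0.62), and Cyp2b13 to Cd36 (0.63) and Idh2 (0.61). Cyp2b10 was closest to Abca5 (0.63) and Cyp2c55 to Memo1 (0.58).

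Over the 14 group means, which share strains between diets, the closest gene to Cyp2b9 was Pgam1, with r of 0.94, and the same gene stood closest to Cyp2b13, with 0.93. Cyp2c50 was closest to Zbed3 (0.95), Cyp2c38 to Nsun3 (0.94) and Cyp2c54 to Cyp2d9 (0.93). Cyp2c29 was closest to Ctse (0.92), Cyp2c55 to Rhod (0.92), Cyp2b10 to Flot2 (0.90), Cyp2c39 to Gm16153 (0.90) and Cyp2c37 to Rilpl2 (0.87). With 14 points from 7 strains, these likenesses are a description only.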

How the data were processed

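Liver RNA from 93 male mice was sequenced on the BGISEQ-500 after library preparation with the SMARTER kit. The authors checked reads with FastQC, aligned those of all strains to GRCm38 with STAR 2.7.1a without trimming and deposited raw counts per Ensembl gene. The annotation release, strand setting and read length are not given in the sources used here. The 4 summary lines of the table were left out. Reads mapping to several places made up 8.03% to 12.2% per mouse, and unmapped reads 1.66% to 14.8%, highest in CAST/EiJ.

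Counts were scaled by TMM and tested with limma-voom (limma 3.58.1, edgeR 4.0.16, R 4.3.3) in 1 fit with a mean for each of 14 groups, after a filter with a minimum count of 10 that left 19110 genes. P-values were adjusted by the Benjamini-Hochberg method over all genes in each comparison, with a threshold of 0.05. Groups came from the labels. Nothing there pairs mice between diets, and no 2 libraries held identical counts. Log2 CPM for display used a prior count of 2, and RPKM used the summed exon length. Neighbours in strain orders were compared by exact permutation tests. Library totals of 40020424 to 49894856 reads set the precision, and the text gave no fold where no mouse of a group had over 3 reads of a gene. The fit was tested on simulated counts with known changes. DESeq2 1.42.0 and edgeR's quasi-likelihood test were among 21 alternatives, and 7 that leave out mice, with 2 on gene lists and on transcript length, were added after seeing the data. Named genes were the members, Nr1i3, Nr1i2 and Por, at most 3 genes per list and strain with the largest called change, and the 3 genes most like each member. The members and lists were chosen with earlier results of these data known. Protein sequences were not used here.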

Additional observations from a re-analysis of the deposited data

Results flagged for a closer look

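In 27 of the 140 combinations of member and group, each with 5 to 8 mice, the highest or lowest mouse lay far from its nearest mate relative to the range of the group. For normally distributed values chance would flag about 1 in 20 such groups, or 7 of the 140. The rule was applied to CPM, many of them near 0 or skewed upward, and the members are not independent of each other. The count of 27 therefore cannot be read against 7. For Cyp2b9 the mice were replicate 2 of C57BL/6J CD-TN at 183 CPM, replicate 6 of WSB/EiJ CD-TN at 21.5, replicate 5 of WSB/EiJ WD-TN at 2.05, replicate 4 of CAST/EiJ CD-TN at 0.0729, replicate 3 of PWK/PhJ CD-TN at 39.1 and replicate 2 of PWK/PhJ WD-TN at 1.47. For Cyp2b10 they were replicate 2 of C57BL/6J CD-TN at 11.2 CPM, replicate 3 of C57BL/6J WD-TN at 11.7, replicate 6 of DBA/2J WD-TN at 2.64 and replicate 3 of PWK/PhJ CD-TN at 0.543. For Cyp2b13 they were replicate 2 of C57BL/6J CD-TN at 1.98 CPM, replicate 1 of DBA/2J CD-TN at 0.0224, replicate 4 of DBA/2J WD-TN at 1.36, replicate 5 of CAST/EiJ WD-TN at 0.0727 and replicate 3 of PWK/PhJ CD-TN at 1.61. The values of 0.0224, 0.0727 and 0.0729 CPM rest on a few reads.

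Among the Cyp2c members, replicate 7 of 129S1/SvImJ CD-TN was the highest of its group for Cyp2c37 (81.1 CPM), Cyp2c39 (284), Cyp2c50 (379) and Cyp2c54 (393). Replicate 6 of WSB/EiJ CD-TN was the highest for Cyp2c38 (59 CPM) and Cyp2c39 (127), and replicate 5 of WSB/EiJ WD-TN for Cyp2c38 (18.7). Replicate 6 of C57BL/6J CD-TN was the highest for Cyp2c38 at 150 CPM. Replicate 4 of WSB/EiJ WD-TN was the lowest of its group for Cyp2c37, at 16.5 CPM against 49.4 to 64.1. For Cyp2c55 the highest mice were replicate 2 of C57BL/6J CD-TN (32.4 CPM), replicate 3 of C57BL/6J WD-TN (9.37) and replicate 3 of PWK/PhJ CD-TN (3.24).

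The effect of diet differed between the strains by limma's F test for Cyp2b9 (adjusted p = 0.015), Cyp2c37 (adjusted p = 0.02), Cyp2c38 (adjusted p = 3.3e-06), Cyp2c39 (adjusted p = 0.0035) and Cyp2c55 (adjusted p = 0.0024).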

How the results depend on the processing

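Of the 13 called effects, 6 passed under every setting that gave them a value, other than the summing of paralogs and the removal of the 6 mice that stood apart (Cyp2b10 and Cyp2c39 in PWK/PhJ, Cyp2b13 in A/J, Cyp2c38 and Cyp2c39 in DBA/2J and Cyp2c55 in 129S1/SvImJ), and 11 passed under every removal of those mice, chosen after seeing the data. The setting with at least 10 counts in every mouse gave values for 5 members alone (Cyp2c29, Cyp2c37, Cyp2c39, Cyp2c50 and Cyp2c54). The counts of members called, with the reported count in brackets, moved as follows, and where the setting's own construction does not give it the cause was not tested. Higher in C57BL/6J [2], the count was 1 with no filter, 0 with at least 10 counts in every mouse, 4 with sample quality weights, 0 in separate fits for each strain, 5 without C57BL/6J WD replicate 3 and 5 without the 6 mice together, and lower [1] it was 0 with at least 10 counts and 0 in separate fits. Higher in DBA/2J [3], it was 1 with at least 10 counts, 5 in separate fits and 1 with paralogs summed. Higher in A/J [1], it was 2 with edgeR, 2 with DESeq2, 0 with at least 10 counts, 5 with weights, 3 in separate fits, 2 without C57BL/6J WD replicate 3, 2 without the 6 mice and 0 with paralogs summed. Higher in 129S1/SvImJ [4], it was 2 with no filter, 2 with at least 10 counts, 7 in separate fits and 1 with paralogs summed.

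Higher in WSB/EiJ [0], the count was 2 with edgeR, 3 with DESeq2, 1 with at least 10 counts, 1 with cohort, 1 with RNA integrity number, 3 with weights, 2 in separate fits, 2 without the 6 mice and 0 to 2 when single mice were left out, and lower [0] it was 1 with edgeR and 2 with DESeq2. Higher in CAST/EiJ [0], it was 1 with edgeR, DESeq2 and cohort, 1 without the 6 mice and 0 to 1 without single mice. In PWK/PhJ, higher [1] became 0 with at least 10 counts and 0 with paralogs summed, and lower [1] became 2 with edgeR and DESeq2, 3 with weights, 3 in separate fits, 0 with paralogs summed and 1 to 2 without single mice. Members departing from the other 6 strains numbered 0 in C57BL/6J [1] and 1 in DBA/2J [2] with at least 10 counts, 1 in 129S1/SvImJ [0] and 1 in WSB/EiJ [0] with weights, and 4 with edgeR and 1 with no filter in PWK/PhJ [2]. With at least 10 counts in every mouse, which leaves 12181 genes and fewer members, the effect of diet differed between strains for 2 members [5] and strains differed for 5 on CD-TN [9] and 5 on WD-TN [10]. Among the gene lists in C57BL/6J, male-predominant genes higher [4] numbered 1 to 4 and lower [0] 0 to 3 when single mice were left out, and lower 4 without the 6 mice; female-predominant genes higher [0] numbered 0 to 1 and lower [1] 1 to 2, and lower 2 without the 6 mice; pericentral genes lower [3] numbered 1 to 3. Female-predominant genes higher in PWK/PhJ [0] numbered 1 without the 6 mice. Summed paralogs gave 7 calls with edgeR [4 of 28]. The one reversal was Cyp2b10 in PWK/PhJ, whose log2 fold change of 3.56 became -1.77 (limma adjusted p = 0.25) when the Cyp2b members were summed, since the sum also holds Cyp2b9.

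No paired analysis was possible because the replicate numbers were given in accession order and pair no mice between the diets. Cohorts were shared between strains in part, and WSB/EiJ had cohorts of its own, where cohort and strain cannot be told apart. Low reads limit Cyp2b13 in 6 of the 14 groups, Cyp2b9 in 1 and Cyp2c55 in 1, where no mouse had over 3 reads. They also limit Cyp2b10 in PWK/PhJ CD-TN, with 0 to 27 reads per mouse.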
